A study of Gloeophyllum trabeum with 9 samples.

Results

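The genes described here responded to cellulose and to Japanese cedar in opposite directions, each relative to glucose. A gene model was taken as a member when its mean TPM was at least 2-fold above glucose on one substrate and at most 0.5 times glucose on the other, its largest group mean was at least 2 TPM, and the values of the 3 carbon sources did not overlap. TPM is an abundance of transcripts corrected for their length and scaled to the library. Of 11846 gene models, 63 were members, and 23 of them were higher on cellulose and lower on cedar, while 40 were higher on cedar and lower on cellulose. The 120 gene models in the study's tables of gene families had been left out. Those tables hold only part of its carbohydrate-active enzymes and P450 genes, so others of these families could still be members.

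The data come from mycelium of the brown rot fungus Gloeophyllum trabeum strain NBRC6430, grown on a rotary shaker with 1 of 3 carbon sources. Cultures on glucose were harvested after 3 days, and cultures on cellulose (Avicel, a microcrystalline cellulose) or on Japanese cedar wood after 5 days. The paper states that both substrates, the cedar as wood flour, had been nanofibrillated by counter collision in water. RNA-seq was done on 3 libraries for each carbon source, which the series describes as biological replicates. All groups shared the strain and the shaken liquid culture, so 1 isolate stands for the species. The carbon source, this treatment of the substrates and the culture time cannot be told apart in any comparison with glucose. The same 3 glucose libraries served both comparisons.

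A brown rot fungus removes cellulose and hemicellulose from wood and leaves most of the lignin in a modified form. Purified cellulose offers a single polymer, whereas cedar wood brings hemicellulose, lignin and soluble extractives along with it. Many fungal genes for the use of complex carbon sources are repressed while glucose is at hand, so that growth on cellulose and growth on wood often draw on overlapping sets of genes. A gene with opposite responses is one for which the glucose level lies between the levels on the other carbon sources.

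The rule used all 9 libraries and both comparisons with glucose. The members' own values are therefore given as a description, without tests. Over the 9543 gene models with a largest group mean of at least 2 TPM, the 3 groups did not overlap in 29.1%. The conditions together were met by 0.262% of them for the direction cellulose higher, cedar lower and by 0.419% for the opposite direction. Both gene models past these values that were left out were of the first direction. One was Glotr_42369, an oxaloacetate acetylhydrolase, which releases oxalate and acetate from oxaloacetate, and the other was Glotr_80540, an oxidoreductase of family AA3_2. A further 3 gene models in the first direction and 14 in the second passed both fold limits with groups that overlapped.

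The scaling of the libraries bears on every value on cellulose. The deposited columns were rescaled between libraries and sum to 678148 to 771024 TPM on glucose, 1574621 to 1680448 TPM on cellulose and 709862 to 899473 TPM on cedar. When each library was given the same total, the median log2 change of all gene models on cellulose moved from -0.09 to -1.09, and that on cedar from 0.04 to -0.12. Of the genes higher on cellulose, 1 of 23 then still met the rule, and 24 of the 40 higher on cedar did, among 227 gene models that met it. Scaling by the median of ratios kept 23 of 23 and 34 of 40. By quantile normalization, the rule kept 12 and 7. The opposite signs alone, without the fold limits, were kept by 16 of 23 and by all 40 with the same total, and by all 63 under the other scalings. The members that met the rule under all of these scalings and as deposited were Glotr_115850 among the genes higher on cellulose, and Glotr_125465, Glotr_35605, Glotr_40800 and Glotr_41489 among those higher on cedar.

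**Figure D1:**
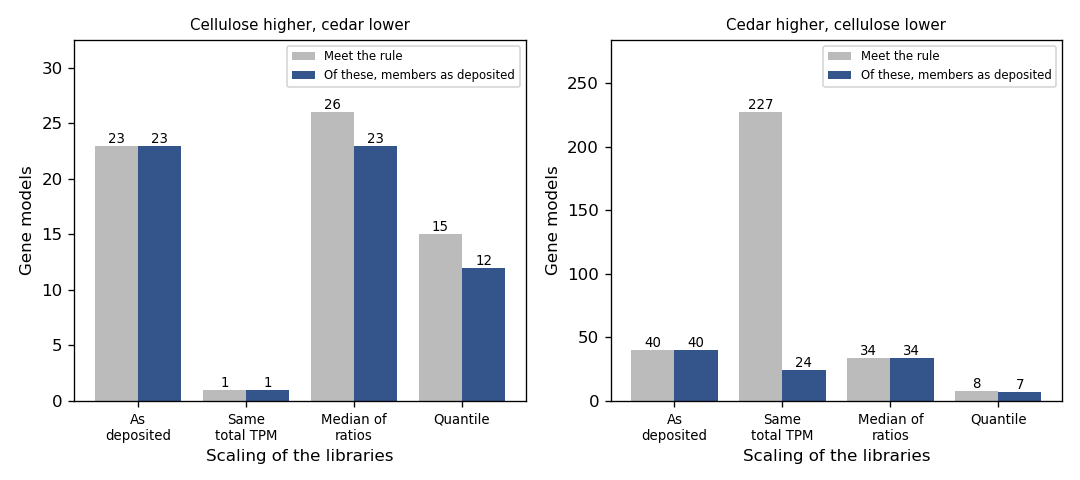
Number of gene models that met the rule in each direction (grey bars, gene models) and how many of them were members as deposited (blue bars), for the deposited values and 3 other scalings of the libraries. With the same total TPM the count fell from 23 to 1 for cellulose higher, cedar lower and rose from 40 to 227 for the opposite direction.

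The directions differed in level. Genes higher on cellulose were mostly abundant, with a median largest group mean of 500 TPM, and 18 of the 23 had a largest mean over 50 TPM. Genes higher on cedar had a median of 7.49 TPM, with 3 of 40 over 50 TPM and 25 of 40 under 10 TPM. Over all gene models of at least 2 TPM, the median was 19.4 TPM, with 23.7% over 50 TPM and 27.5% under 10 TPM. The difference was already present on glucose, where the median group mean was 114 TPM in the first direction, 3.15 TPM in the second and 13.8 TPM over all gene models.

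**Figure D2:**
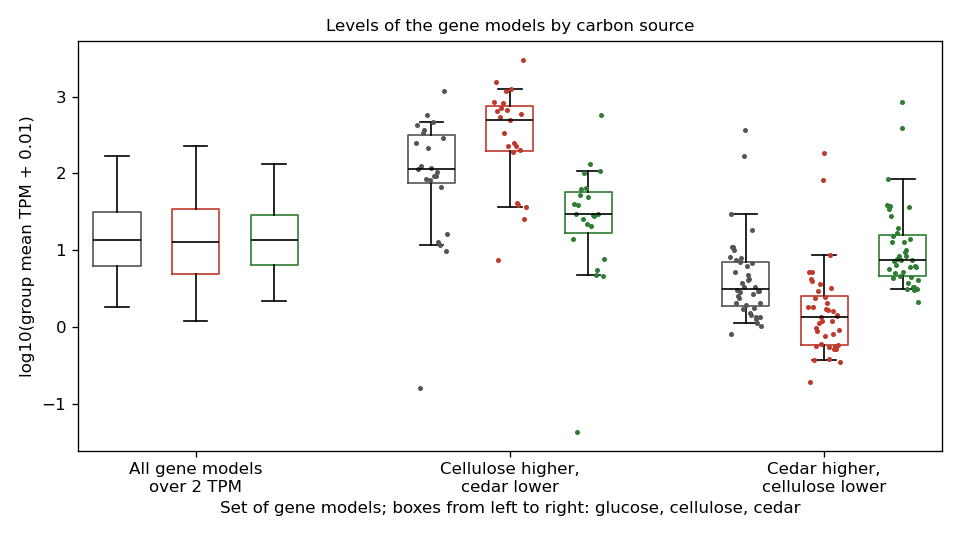
Group mean TPM on a log10 axis (0.01 TPM added) on glucose, cellulose and cedar for all gene models of at least 2 TPM, for the 23 genes higher on cellulose and for the 40 genes higher on cedar, with boxes for the quartiles, whiskers for the 5th and 95th percentiles and points for single genes. The medians on glucose were 13.8, 114 and 3.15 TPM.

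In sum over the 23 genes higher on cellulose, the libraries held 4765, 5457 and 4963 TPM on glucose, 16635, 15184 and 9883 TPM on cellulose, and 1550, 1197 and 1575 TPM on cedar. The 40 genes higher on cedar summed to 740, 700 and 739 TPM on glucose, 299, 402 and 308 TPM on cellulose, and 1678, 1634 and 1900 TPM on cedar. The higher side was not the larger side in general. For the first direction, the median ratio of cellulose to glucose was 2.75 (2.03 to 49.1), and the median ratio of glucose to cedar was 3.29 (2.08 to 17.6), with the fold on the lower side the larger one in 12 of 23 genes. For the second, the median ratio of cedar to glucose was 2.34 (2.01 to 7.11) and that of glucose to cellulose 2.51 (2.0 to 5.79), with the lower side larger in 21 of 40.

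**Figure D3:**
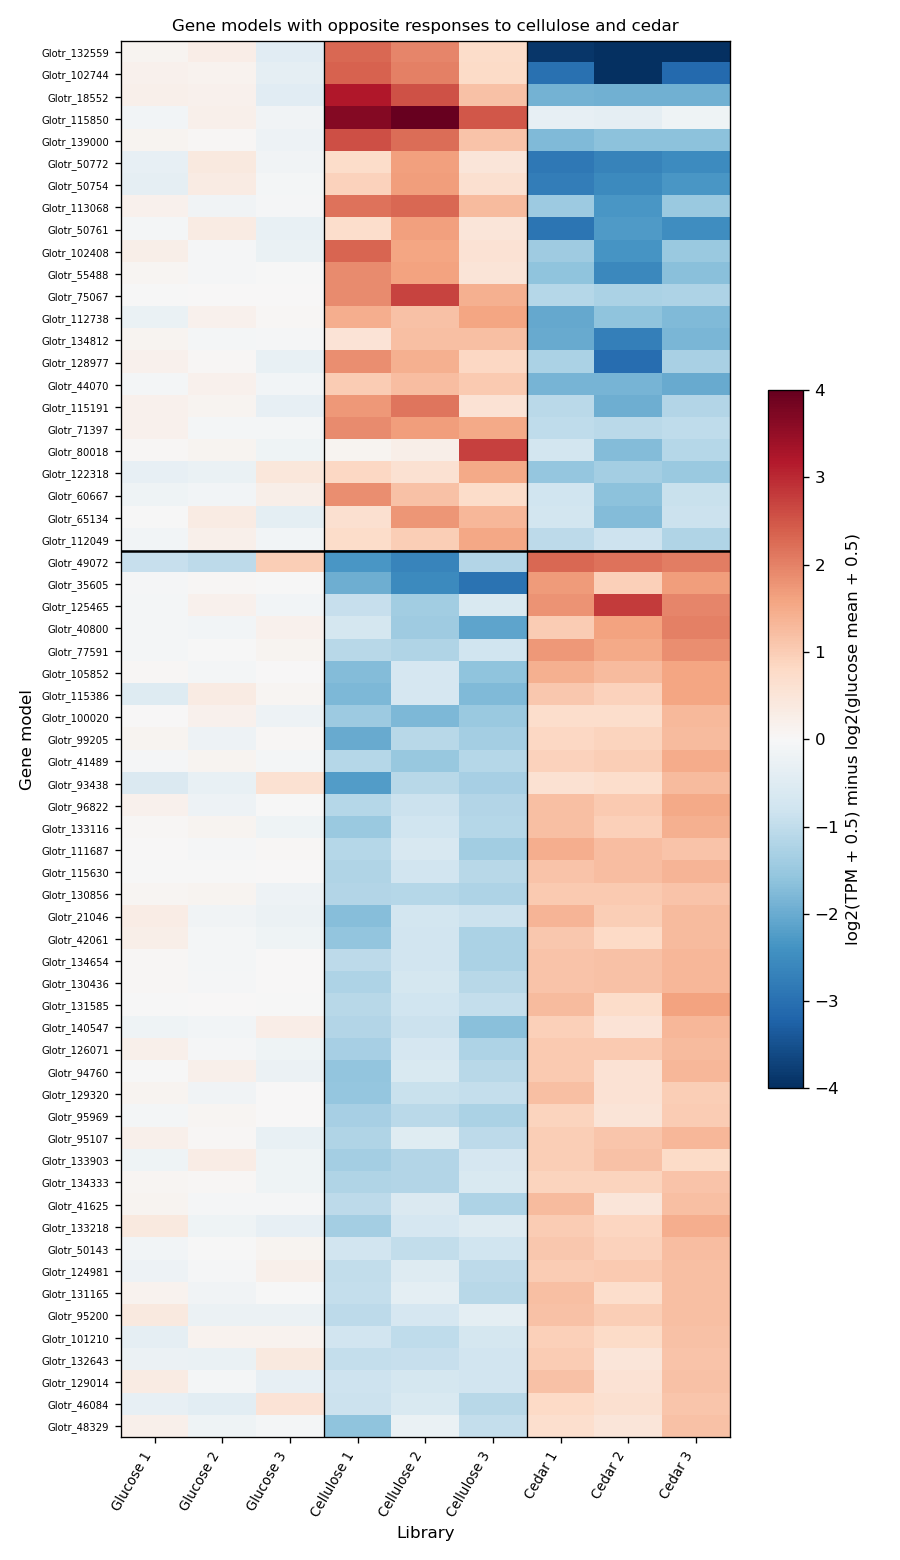
Value of each of the 63 members in each of the 9 libraries, as log2(TPM + 0.5) minus the same for the glucose mean (colour, limited to the range from -4 in blue to 4 in red), ordered by the distance between cellulose and cedar within each direction. The 23 genes above the black line are mostly red on cellulose and blue on cedar, and the 40 below it mostly the reverse. Some libraries are near 0, such as the first and second cellulose libraries of Glotr_80018. Glotr_115850 is near 0 on cedar because its values there and on glucose are far below the 0.5 TPM added.

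Among the genes higher on cellulose, Glotr_132559 had the largest distance between the substrates in log2(mean TPM + 0.5). Its libraries held 266, 293 and 178 TPM on glucose, 1210, 948 and 405 TPM on cellulose, and 16.2, 11.0 and 14.8 TPM on cedar. The cedar mean was 0.0569 of the glucose mean, a wider distance than the ratio of cellulose to glucose, 3.48. Glotr_102744 followed with 474, 461 and 329 TPM on glucose, 2162, 1707 and 713 TPM on cellulose, and 52.5, 19.0 and 48.3 TPM on cedar. In both genes the third cellulose library was the lowest of its group, and it lies above every glucose library, as the rule requires. Neither was in the part of the study's annotation at hand, so neither is named here.

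Glotr_18552 is named a fungal hydrophobin in that part, which otherwise held 1 member of this direction, a hypothetical protein. Hydrophobins are small secreted proteins, found in fungi, that assemble at the boundary of water and air and coat hyphae and spores. It had 130, 129 and 82.5 TPM on glucose, 1051, 660 and 255 TPM on cellulose, and 30.3, 29.5 and 29.3 TPM on cedar. The cellulose libraries spread widely, while the cedar libraries were nearly equal. Its gene model, of 366 bases, was the shortest of the 20 in this direction with a length in RefSeq.

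The annotation held 8 gene models named as hydrophobins, 7 of which are not members. Of these 7, 6 could be tested on cellulose and all on cedar. Glotr_19724 was the most abundant of them and was highest on glucose, with 16635, 18739 and 21804 TPM there, 3987, 2463 and 1927 TPM on cellulose, and 418, 306 and 405 TPM on cedar. It fell on both substrates, by 2.83 on the log2(TPM + 0.5) scale on cellulose (standard error 0.402, limma, adjusted p = 0.00151) and by 5.66 on cedar (standard error 0.220, limma, adjusted p = 2.15e-06). Glotr_14179, named here after its values were seen, had 932, 1223 and 1073 TPM on glucose, 20644, 12550 and 6796 TPM on cellulose, and 1669, 430 and 1471 TPM on cedar. It rose on cellulose by 3.50 on the same scale (standard error 0.444, limma, adjusted p = 0.000944), and on cedar its log2 change of -0.07 (adjusted p = 0.910) did not pass the thresholds.

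By the rule, the member Glotr_18552 was higher on cellulose and lower on cedar. Glotr_14179 was also higher on cellulose and Glotr_19724 also lower on cedar, which is only a description. In the remaining 5 hydrophobin gene models, all at 22.7 TPM or less in every library, Glotr_13015 and Glotr_44256 fell on cellulose and Glotr_28272 rose on cedar. Glotr_47300 and Glotr_44122 passed the thresholds on neither substrate, and Glotr_44122 was not tested on cellulose because it was listed at 0 in 4 of the 6 libraries compared. A gene passed when its Benjamini-Hochberg adjusted p was under 0.01 and its ratio of means was at least 2 or at most 0.5. The calls of Glotr_14179 and Glotr_19724 held in all 17 fits run for each comparison. The log2 change of the member Glotr_18552 on cellulose was 2.33 as deposited and 1.83 by quantile normalization. It was 1.17 with the same total TPM, where Glotr_18552 no longer met the rule. With the same total TPM, Glotr_28272 and Glotr_47300 were below glucose on cellulose, at log2 changes of -0.28 and -0.17, in place of 0.74 and 0.92 as deposited, and by quantile normalization Glotr_28272 passed as higher there, at 1.06 (limma, adjusted p = 0.00271).

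**Figure D4:**
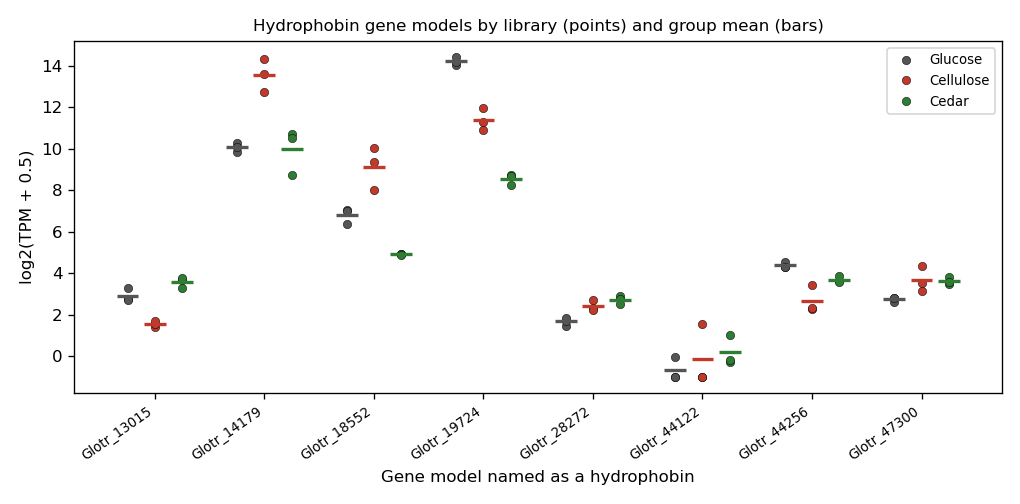
Values of the 8 hydrophobin gene models in every library as log2(TPM + 0.5) (points, n = 3 for each carbon source) with the group mean of the logs (bars). Glotr_18552 is highest on cellulose and lowest on cedar, Glotr_14179 is highest on cellulose only, and Glotr_19724 is highest on glucose.

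Glotr_115850 had the largest ratio of cellulose to glucose, 49.1, and the lowest levels. It had 0.104, 0.254 and 0.0929 TPM on glucose, 7.82, 11.2 and 3.15 TPM on cellulose, and 0.0177, 0.0103 and 0.0717 TPM on cedar. The difference between glucose and cedar thus lies between values of 0.254 TPM or less, and without the third cedar library its ratio of cedar to glucose moved from 0.221 to 0.0931. Without the second glucose library its ratio of cellulose to glucose was 75.0. In level it was apart from the rest of its direction, since no other gene had a largest mean under 10 TPM.

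A set of 3 members, Glotr_50772, Glotr_50754 and Glotr_50761, shared a profile. Glotr_50761 had 547, 723 and 476 TPM on glucose, 940, 1810 and 806 TPM on cellulose, and 76.8, 120 and 104 TPM on cedar. Glotr_50754 had 289, 465 and 352 TPM on glucose, 705, 1188 and 576 TPM on cellulose, and 53.7, 62.0 and 73.4 TPM on cedar. Glotr_50772 had 269, 445 and 309 TPM on glucose, 565, 1060 and 481 TPM on cellulose, and 46.8, 53.0 and 58.7 TPM on cedar. In each of them the second library was the highest on glucose and on cellulose.

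None of these 3 had a match in RefSeq, against 3.58% of all gene models without one. The gene models most like Glotr_50761 over the 9 libraries, by Pearson's coefficient on log2(TPM + 0.5), were these and 4 others without a RefSeq match, namely Glotr_50753, Glotr_108671, Glotr_15151 and Glotr_50822, which were picked out after their values were seen. The coefficients with Glotr_50761 ran from 0.991 to 0.995, over libraries that fall into 3 clusters by carbon source. The ratios of all 7 ran from 1.89 to 2.23 for cellulose to glucose and from 0.137 to 0.172 for cedar to glucose, so that the limit of 2 divides a set of nearly equal genes. Glotr_15151, with 381, 630 and 413 TPM on glucose, 712, 1442 and 658 TPM on cellulose, and 66.0, 64.8 and 83.7 TPM on cedar, is named a polyketide synthase, an enzyme class that builds secondary metabolites from acyl units. Reads that fit more than 1 gene model are split by Kallisto according to its estimates, and whether these 7 share sequence was not tested. With the same total TPM, all 7 were below glucose on cellulose as well as on cedar.

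The most abundant member was Glotr_60667, with 1057, 1122 and 1416 TPM on glucose, 4372, 2676 and 1991 TPM on cellulose, and 682, 384 and 642 TPM on cedar. Its cellulose libraries spread widely, and its groups are apart by the rule. The gene models most like it over the 9 libraries were Glotr_66842 (r = 0.991), Glotr_60052 (r = 0.990), Glotr_117854 (r = 0.986), Glotr_141334 (r = 0.985) and Glotr_115042 (r = 0.985), none of them a member. Glotr_60052 was just outside the limit on cedar, with a ratio of glucose to cedar of 1.95, and the group means of Glotr_115042 were 266 TPM on glucose, 353 TPM on cellulose and 219 TPM on cedar.

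In Glotr_112738 the cellulose libraries agreed better. It had 385, 531 and 485 TPM on glucose, 1271, 1051 and 1404 TPM on cellulose, and 112, 153 and 136 TPM on cedar. The next gene model in the RefSeq annotation, 710 bases away, is Glotr_67059, whose group means were 184 TPM on glucose, 360 TPM on cellulose and 88.8 TPM on cedar. Its ratio of 1.96 on cellulose placed it just outside the limit. Glotr_44070, a hypothetical protein, was also even among replicates, with 98.9, 119 and 98.3 TPM on glucose, 215, 251 and 217 TPM on cellulose, and 28.8, 28.6 and 25.7 TPM on cedar.

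In several further members the third cellulose library was the lowest of its group. Glotr_139000 had 135, 130 and 109 TPM on glucose, 749, 594 and 278 TPM on cellulose, and 36.3, 39.3 and 39.6 TPM on cedar. Glotr_102408 had 253, 207 and 179 TPM on glucose, 1068, 642 and 315 TPM on cellulose, and 79.1, 40.9 and 76.1 TPM on cedar. In both, replicate 1 was the highest on cellulose, then replicate 2, then replicate 3. Glotr_55488 had the same order, with 86.3, 79.6 and 81.9 TPM on glucose, 309, 253 and 120 TPM on cellulose, and 27.0, 13.3 and 25.7 TPM on cedar. Glotr_128977 had 106, 97.0 and 76.3 TPM on glucose, 337, 250 and 164 TPM on cellulose, and 38.8, 10.7 and 38.0 TPM on cedar. In both, the second cedar library was by far the lowest.

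Glotr_113068 and Glotr_75067 instead peaked in the second cellulose library. The first had 96.5, 76.8 and 81.8 TPM on glucose, 382, 420 and 207 TPM on cellulose, and 30.9, 16.7 and 29.8 TPM on cedar. The second had 114, 117 and 118 TPM on glucose, 431, 757 and 311 TPM on cellulose, and 52.2, 48.0 and 49.4 TPM on cedar, with little spread anywhere but on cellulose. Glotr_115191 was like them on cellulose at a lower level, with a mean of 40.7 TPM there, 12.9 TPM on glucose and 4.75 TPM on cedar.

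The third cellulose library was the high one in Glotr_80018, and the gene met the rule only with it. Glotr_80018 had 69.9, 72.4 and 59.8 TPM on glucose, 73.3, 78.6 and 450 TPM on cellulose, and 40.1, 19.8 and 30.2 TPM on cedar. Without that library its ratio of cellulose to glucose moved from 2.98 to 1.13. Without the second cedar library, the lowest on cedar, it also failed the rule. Glotr_122318 was also highest there, with 235, 243 and 400 TPM on glucose, 518, 446 and 845 TPM on cellulose, and 99.4, 115 and 105 TPM on cedar. On cellulose its lowest library was only a little above its highest on glucose.

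Glotr_134812 was the member nearest to the limit in this direction, with 101, 88.3 and 89.6 TPM on glucose, 137, 216 and 213 TPM on cellulose, and 22.4, 13.7 and 25.7 TPM on cedar, a ratio of 2.03 for cellulose to glucose. The next inside were Glotr_50761 at 2.04 and Glotr_122318 at 2.06, and the nearest outside were Glotr_15151 at 1.98, Glotr_67059 at 1.96 and Glotr_60052 at 1.95, each for the smaller of its folds. The members not given by library, Glotr_115191, Glotr_71397, Glotr_65134 and Glotr_112049, had means of 25.5 to 40.7 TPM on cellulose and 4.58 to 7.80 TPM on cedar. Glotr_112049 had the longest gene model of the direction, at 13277 bases.

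**Figure D5:**
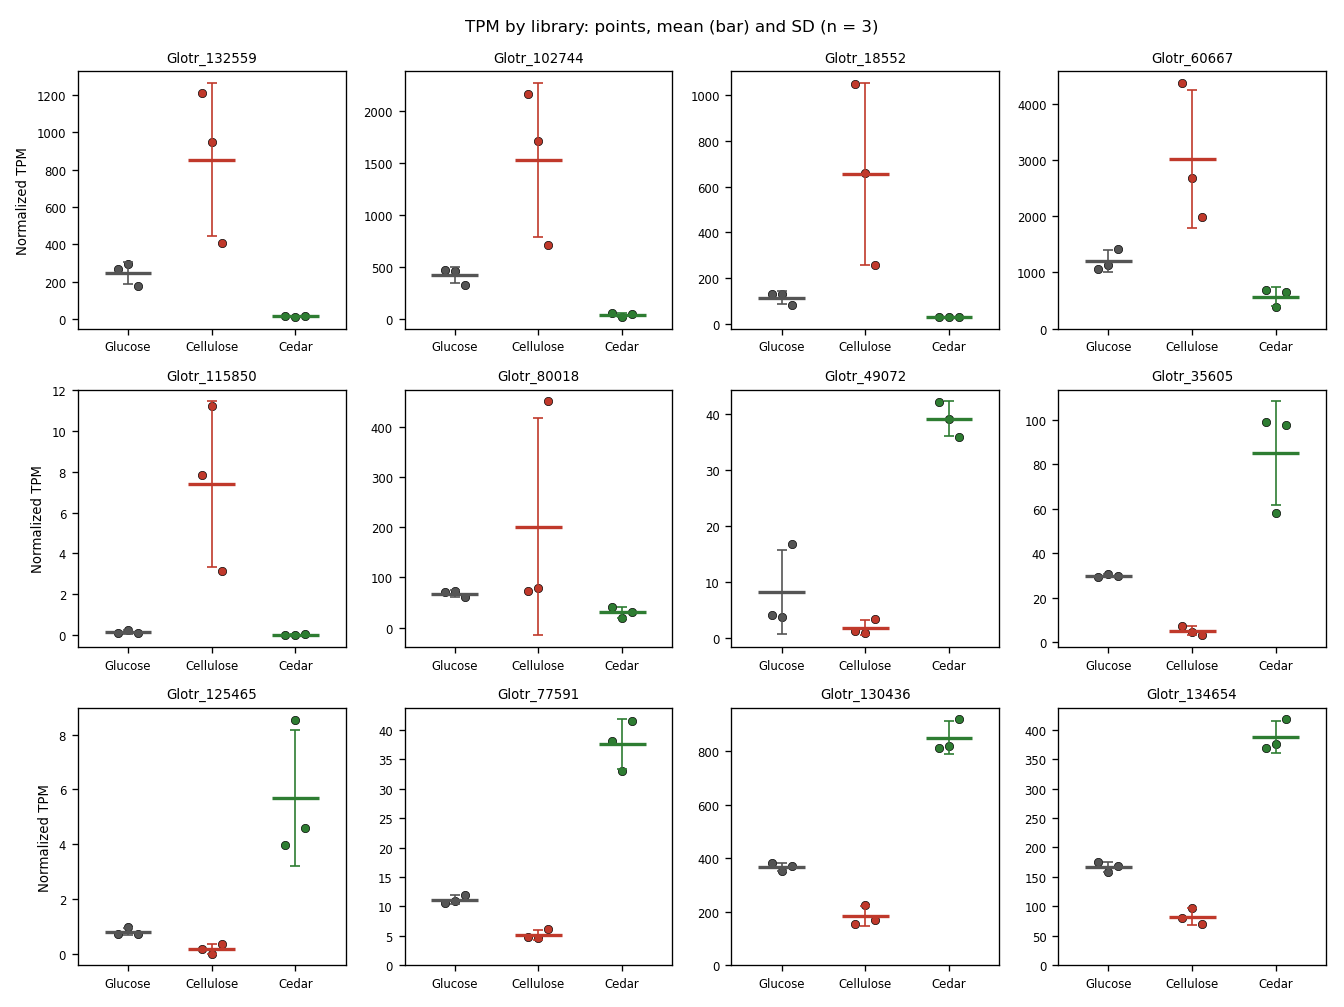
TPM in every library (points), group mean (bar) and SD (error bar, n = 3) on glucose, cellulose and cedar for 6 genes higher on cellulose and 6 higher on cedar, each panel on its own linear axis. The cellulose mean of Glotr_80018 rests on 1 library of 450 TPM. By the rule the groups are apart in every panel, though glucose and cedar of Glotr_115850 both lie at the bottom of its axis. In the first direction the spread is larger on cellulose.

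Among the genes higher on cedar, Glotr_49072 had the widest distance on the log2 scale with 0.5 TPM added. Its libraries held 4.16, 3.78 and 16.9 TPM on glucose, 1.26, 0.914 and 3.36 TPM on cellulose, and 42.3, 39.3 and 36.1 TPM on cedar. The third glucose library lay far above the other two, and without it the ratio of cedar to glucose moved from 4.74 to 9.88 and that of cellulose to glucose from 0.223 to 0.465. Its gene model, of 4900 bases, was the longest of this direction.

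Glotr_35605 is named an aminophospholipid-transporting P-type ATPase. Enzymes of this class use ATP to move phospholipids such as phosphatidylserine to the cytosolic leaflet of a membrane, a step linked to vesicle formation in yeast. It had 29.2, 30.9 and 30.0 TPM on glucose, 7.40, 4.69 and 3.44 TPM on cellulose, and 99.2, 58.2 and 97.7 TPM on cedar. The glucose libraries were nearly equal, and the cedar mean was 16.4 times the cellulose mean. No other P-type ATPase was named in the part of the annotation at hand.

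The most abundant genes of this direction were Glotr_130436 and Glotr_134654, both outside the part of the annotation with names at hand. Glotr_130436 had 382, 352 and 369 TPM on glucose, 156, 226 and 169 TPM on cellulose, and 810, 821 and 922 TPM on cedar. Its ratio of glucose to cellulose of 2.0 made it the member nearest to the limit. Glotr_134654 had 175, 158 and 169 TPM on glucose, 80.6, 98.0 and 69.7 TPM on cellulose, and 368, 375 and 419 TPM on cedar. Both had the highest cellulose value in the second library and the highest cedar value in the third.

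The gene models most like Glotr_130436 over the 9 libraries were Glotr_115630 (r = 0.999), Glotr_134654 (r = 0.996), Glotr_126071 (r = 0.995), Glotr_111153 (r = 0.995) and Glotr_105852 (r = 0.994), all members but Glotr_111153. The rule itself gives members of this direction the same order of carbon sources, so high coefficients among them are only a description. The levels of these gene models differed widely. Glotr_115630 had 7.89, 7.78 and 8.03 TPM on glucose, 3.15, 4.44 and 3.36 TPM on cellulose, and 18.1, 19.2 and 21.0 TPM on cedar, a profile of nearly the same shape at a small part of the level. Glotr_105852 had 10.4, 9.60 and 10.2 TPM on glucose, 2.70, 6.20 and 3.00 TPM on cellulose, and 27.5, 24.9 and 30.8 TPM on cedar.

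Glotr_125465 had the largest ratio of cedar to cellulose, 31.2, at a low level. Its values were 0.730, 0.956 and 0.719 TPM on glucose, 0.187, 0 and 0.362 TPM on cellulose, and 3.97, 8.54 and 4.58 TPM on cedar, and the second cellulose library was listed at 0. The ratio of cellulose to glucose moved from 0.228 to 0.117 without the third cellulose library. Glotr_48329 was likewise listed at 0 in a cellulose library, the first, and had the lowest cedar mean of the genes higher on cedar, at 2.14 TPM. Without the second cellulose library its ratio of cellulose to glucose moved from 0.340 to 0.142.

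Glotr_77591 was even among replicates, with 10.5, 10.9 and 12 TPM on glucose, 4.86, 4.56 and 6.17 TPM on cellulose, and 38.1, 33.1 and 41.5 TPM on cedar. It overlaps Glotr_116586, whose means were 12 TPM on glucose, 88.8 TPM on cellulose and 48.6 TPM on cedar. Whether reads in the shared stretch were divided between these gene models was not tested. Glotr_40800, a hypothetical protein with the shortest gene model of the direction at 223 bases, had 10.4, 10.2 and 12.4 TPM on glucose, 6.63, 3.80 and 2.18 TPM on cellulose, and 22.8, 34.6 and 46.5 TPM on cedar. Its replicates ran in opposite order on the substrates, the first library being the highest on cellulose and the lowest on cedar.

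Glotr_115386 had 3.54, 6.70 and 5.51 TPM on glucose, 1.14, 3.11 and 1.19 TPM on cellulose, and 11.7, 10.3 and 16.6 TPM on cedar. Its second cellulose library came close to its first glucose library, and without that cellulose library the ratio of cellulose to glucose moved from 0.345 to 0.222. Glotr_99205 had 8.07, 6.47 and 7.78 TPM on glucose, 1.48, 3.16 and 2.61 TPM on cellulose, and 13.7, 14.1 and 18.5 TPM on cedar. Glotr_100020, without a RefSeq match, was at 1.75 to 2.36 TPM on glucose, 0.235 to 0.438 TPM on cellulose and 3.65 to 5.79 TPM on cedar. In these 3 genes the third cedar library was again the highest.

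The remaining genes of widest distance were low on all carbon sources. Glotr_41489, a hypothetical protein, ranged from 2.82 to 3.29 TPM on glucose, 0.721 to 1.10 TPM on cellulose and 6.18 to 9.24 TPM on cedar. Glotr_93438 ranged from 1.51 to 4.04 TPM on glucose, 0.134 to 0.882 TPM on cellulose and 4.12 to 6.74 TPM on cedar, so that glucose replicate 3 nearly reached the first cedar library. Glotr_96822 ranged from 1.99 to 2.76 TPM on glucose, 0.762 to 1.07 TPM on cellulose and 5.42 to 7.69 TPM on cedar. The rule requires groups that do not overlap, and its lowest cedar library was 1.97 times its highest on glucose.

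Glotr_42061 is named a kinase-like protein, a family whose typical members transfer phosphate from ATP. It had 3.92, 3.08 and 2.87 TPM on glucose, 0.765, 1.71 and 1.08 TPM on cellulose, and 7.54, 6.07 and 8.70 TPM on cedar. Of the 46 gene models named as kinases, itself included, 3 were higher and 3 lower on cellulose, and 7 were higher and 2 lower on cedar by limma, where 10.4%, 13.9%, 15.2% and 15.7% of all gene models tested were called in these comparisons. The median log2 change of the kinases was -0.07 on cellulose and 0.08 on cedar, against -0.09 and 0.04 over all gene models. With the same total TPM, 0 kinases were higher and 25 were lower on cellulose, where 3.36% of all gene models tested were higher and 56.5% lower.

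Glotr_41625 is named a SurE-like protein, after a bacterial nucleotidase. Its libraries had 2.97, 2.61 and 2.59 TPM on glucose, 1.06, 1.65 and 0.882 TPM on cellulose, and 7.32, 4.04 and 6.91 TPM on cedar. The other SurE-like gene model, Glotr_24456, had 0.840, 1.13 and 2.03 TPM on glucose, 8.41, 10.9 and 1.07 TPM on cellulose, and 11.8, 6.17 and 9.43 TPM on cedar. Its cellulose replicate 3 was within the glucose range, while the other two were above it. The rule places every member of this direction below its glucose range on cellulose, so the comparison with Glotr_24456 is only a description.

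The cedar means of the other 21 genes higher on cedar lay between 3.07 and 37.0 TPM. The nearest to the limit after Glotr_130436 were Glotr_133903 and Glotr_46084, both at a fold of 2.01. Just outside were Glotr_95308, Glotr_125942 and Glotr_81874, all at 1.99. Glotr_81874 had means of 19.0 TPM on glucose, 9.52 TPM on cellulose and 119 TPM on cedar, so its ratio of cedar to glucose was 6.28 and the fold on cellulose kept it out.

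Among the 59 members matched to RefSeq, neighbouring members were found for the genes higher on cedar. Glotr_111687 and Glotr_130856 are next to each other in the RefSeq annotation, 693 bases apart. Glotr_111687 had 2.84, 2.74 and 2.92 TPM on glucose, 0.999, 1.63 and 0.772 TPM on cellulose, and 8.63, 7.29 and 6.84 TPM on cedar. Glotr_130856 had 3.97, 4.04 and 3.16 TPM on glucose, 1.38, 1.40 and 1.30 TPM on cellulose, and 8.25, 8.31 and 8.79 TPM on cedar.

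Glotr_21046 and Glotr_46084 lie 1754 bases apart, with Glotr_131549 between them. Glotr_131549, described after its values were seen, had means of 3.74 TPM on glucose, 1.79 TPM on cellulose and 7.40 TPM on cedar, close to the limits, so that 3 gene models in a row had their highest mean on cedar and their lowest on cellulose. Glotr_21046 and Glotr_46084 have this order by the rule, and the share of all gene models with it was not worked out. The means of Glotr_21046 were 1.72, 0.586 and 4.63 TPM, and those of Glotr_46084 were 2.04, 0.906 and 4.10 TPM, on glucose, cellulose and cedar. No other pair of matched members lay within 3 gene models of each other. Scaffold names were not at hand, so a break between scaffolds was taken only where the start position dropped. Other breaks would be missed. Among the 35 directly adjacent gene models of at least 2 TPM beside genes higher on cellulose, 0 were 2-fold in the same way on both substrates, and 2 of 62 were beside genes higher on cedar, the adjacent pair counted from both sides. No share over all gene models was worked out beside these counts, so nothing is read from them. Overlap with another gene model was found for Glotr_134812, Glotr_115191 and Glotr_112049 in the first direction and for Glotr_77591 in the second.

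Short gene models made up a larger share of the genes higher on cellulose. Of the 20 with a RefSeq length, 5 (25%) were under 600 bases, beside 7.69% of the 39 higher on cedar and 9.42% of all gene models of at least 2 TPM. The median lengths were close, at 1554, 1296 and 1584 bases. These shares are a description of 5 genes, among them the hydrophobin Glotr_18552, Glotr_132559 and Glotr_102408.

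Single libraries moved with the members. The third cellulose library was the lowest of its group in 16 of the 23 genes higher on cellulose and in 37.3% of all gene models of at least 2 TPM. The second cedar library was the lowest in 14 of 23, and in 46.2% of all. The median coefficient of variation of these genes was 42.8% on cellulose, 21.7% on cedar and 16.4% on glucose, above the 18.6%, 11.5% and 9.56% of all gene models. Among the genes higher on cedar, the second cellulose library was the highest of its group in 26 of 40 (31.5% of all gene models), and the third cedar library in 30 of 40 (29.4%). The coefficients there were 33.0% on cellulose, 18.1% on cedar and 15.0% on glucose. The counts with single libraries left out are given next, and the reason for these patterns was not tested.

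With any single library left out, 14 of the 23 and 20 of the 40 still met the rule each time. The number that met it ran from 19 to 33 in the first direction, the latter without the third cellulose library, and from 29 without the third cedar library to 55 without the second cellulose library in the second. By limma, 11 of the 23 genes higher on cellulose passed the thresholds as higher there (10.4% of all gene models tested), and 20 of the 22 tested passed as lower on cedar (15.7%), Glotr_115850 being too low to be tested on cedar. Among the 40 genes higher on cedar, 36 passed as higher on cedar (15.2%) and 23 as lower on cellulose (13.9%). Between cedar and cellulose directly, 22 of 23 passed as lower on cedar (5.95%) and 40 of 40 as higher (10.7%). Both comparisons with glucose were passed by 9 and 23 genes. Since the members were chosen by these same differences, nothing about them is read from these counts.

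Names were held for 14.6% of all gene models and for 9 of the 63 members (14.3%), 2 of the 23 and 7 of the 40. Of these, 1 and 4 were hypothetical proteins. Of 22 families searched by name, 3 held a member, namely hydrophobins, P-type ATPases and kinases. Nothing is read from the families without one, since 0.262% and 0.419% of gene models met the conditions in the 2 directions, 1 family matched no gene model, and tabled genes such as 9 of the 24 named P450 genes had been left out. The names of the other members were not looked up here.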

How the data were processed

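The deposited signal values are TPM for 11846 gene models, 1 column for each of 9 libraries, none pooled. For these the authors used FaQCs for read trimming, kallisto 0.44.0 for pseudoalignment to filtered JGI gene models, and sleuth 0.29.0 for normalization between libraries. The test had been laid out for TPM of a fixed total, which these rescaled values are not, and it was used on them unchanged. Without read counts, the depth behind a gene is unknown, and precision rests on the spread of 3 libraries. Since kallisto divides ambiguous reads by estimation, near-identical genes are uncertain.

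Members were found on group means as deposited, and 120 gene models listed in the study's tables were left out. The members, gene lists and naming rule were chosen with earlier results of these data known. Named were, for each direction, the 12 members with the largest distance between cellulose and cedar in log2(mean TPM + 0.5), members over 50 TPM, members with a family name and the 3 nearest to the limit on each side, with neighbours, family members of highest mean, and the 5 gene models most like the most abundant member. Tests used limma 3.58.1 in R 4.3.3 (lmFit, eBayes with trend, two-sided) on log2(TPM + 0.5), for the 2 groups compared. They covered gene models with at least 0.1 TPM in 3 of 6 libraries, with Benjamini-Hochberg adjustment over all of them. The test was also run on simulated data with the spread of the glucose libraries. That spread is smaller than the one on cellulose, and nothing is read from the simulation here. Tables and plots used Python 3.11.15, pandas 2.3.3, NumPy 2.4.6 and matplotlib 3.10.9. Ratios are of mean TPM. Names came from the study's own sequence search, held for 1734 gene models and so used for no set test. Lengths and order came from RefSeq (assembly Glotr1_1), matched by locus number for 11422 gene models and unmatched for 424. Alternatives were the scaling, fold limit, minimum level, overlap, median, added value, filter, trend, samples in the fit, replicate block and each library left out.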

Additional observations from a re-analysis of the deposited data

How the results depend on the processing

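The number of genes higher on cellulose and lower on cedar was 1 with the same total TPM, 15 with quantile normalization, 68 with a fold limit of 1.5 and 7 with a limit of 3, against 23. The number higher on cedar and lower on cellulose was 227, 8, 168 and 2 under these settings and 15 with a minimum of 10 TPM, against 40. With the same total TPM, 353 genes were called higher and 5934 lower on cellulose than on glucose, and 4897 higher and 141 lower on cedar than on cellulose. Quantile normalization gave 707 higher on cedar than on cellulose. With a library left out, genes higher on cedar than on cellulose ran from 287 to 1232 and lower ones from 149 to 819, both lowest without cedar replicate 3 and highest without cellulose replicate 3. Named members whose log2 change on cellulose, a mean over libraries, turned negative with the same total TPM, where the median of all gene models shifts down, were Glotr_50772 (-0.17), Glotr_50754 (-0.046), Glotr_50761 (-0.21), Glotr_134812 (-0.17), Glotr_44070 (-0.051), Glotr_80018 (-0.13) and Glotr_122318 (-0.13). By group means, Glotr_112049 also fell below glucose there and Glotr_80018 did not. Under median-of-ratios scaling and quantile normalization no named member changed sign.

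The libraries were not treated as paired by replicate number. The correlations of same-numbered deviations ran from -0.39 to 0.18, and those between different numbers are not given, so whether the numbers mark pairs is left undecided. With the number as a block, 285 genes were called higher and 127 lower on cedar than on cellulose, against 1124 and 625, and the other counts stayed within 1.5 times.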
